A study of Drosophila melanogaster with 53 samples.

Results

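The starch- and maltose-digesting enzymes described here are 9 Drosophila melanogaster genes: the amylases Amy-d and Amy-p, the maltases Mal-A1, Mal-A6, Mal-A7, Mal-A8, Mal-B1 and Mal-B2, and the alpha-glucosidase tobi. They were chosen by name, and all 9 were found among the 10657, 10222 and 10258 genes listed in the male ageing, daw-3'UTR and mir-252 expression tables. The names were selected on earlier results of these tables, of which the low Amy-d reads of the daw-3'UTR mutants are the recorded value. The members' values are therefore given as a description, and the adjusted p-values beside them, which come from fits across all genes, are not independent support for the list.

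Muscle of mutant and wild-type flies was profiled by polyA RNA sequencing. Together with the whole-fly Ago1 samples described below, the series held 53 samples in 19 groups. One set held 3-day-old females: atg8ac320/c320, daw-3'UTRc82/c82, daw-3'UTRc82/c82 with foxoc431/c431, and wild type. Another held 3-day-old females that were mir-252c328/c328, foxoc431/c431, homozygous for both alleles, dawc458/+ on top of both, or wild type. Male wild-type muscle was taken at 3, 15, 30 and 45 days. Each of these groups had 3 libraries, and wild type was the 5905 (w1118) strain in each. Axenic foxoc431/c431 and wild-type females, 3 days old and raised on media with ampicillin, tetracycline and rifamycin, had 3 samples each. Whole flies of both sexes at 3 and 30 days, with pBID-UAS-HA-Ago1/+ and GS-tubulin-GAL4/+, gave 2 HA-Ago1 immunoprecipitates and 2 inputs per age. For the axenic and Ago1 samples only the authors' deposited comparisons were used. Nothing in the labels says whether replicate libraries were made from different animals, so the p-values reflect library-to-library spread, part of which may be technical.

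Amylases cut starch into maltose and short oligosaccharides, and maltases release glucose from these. In flies both are made in the midgut and are repressed by dietary sugar. In that repression Dawdle (daw), an activin-like ligand secreted by the fat body, signals through the receptor Baboon to lower digestive enzyme expression. The name tobi stands for target of brain insulin, and the gene responds to insulin and to adipokinetic hormone. Foxo is a transcription factor that insulin signalling holds back, and Atg8a is a ubiquitin-like protein of autophagosomes.

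In the dm6 annotation 6 members lie on chromosome arm 2R, 2 on 2L and 1 on 3R. Amy-p (FBgn0000079, 2R:17118636-17120303, minus strand) and Amy-d (FBgn0000078, 2R:17124764-17126369, plus strand) are near-identical copies 4460 bp apart with 2 genes between them, so reads that match both may have been split or dropped. Mal-A1 (FBgn0002570) lies at 2R:8449664-8451904. Mal-A6 (FBgn0050360, 2R:8465158-8467595), Mal-A7 (FBgn0033296, 2R:8468646-8471663) and Mal-A8 (FBgn0033297, 2R:8471954-8473961) follow each other with gaps of 1050 and 290 bp. Mal-B1 (FBgn0032381, 2L:11847226-11849169) and Mal-B2 (FBgn0032382, 2L:11849958-11852881) are 788 bp apart, and both lie opposite Pde1c without sharing exon bases. The gene tobi (FBgn0261575) lies at 3R:25344761-25346921. Small exon overlaps on the opposite strand exist for Mal-A1 with Cyp4e1 (82 bp), Mal-A8 with mtt (6 bp) and tobi with rha (78 bp). Whether reads were counted by strand is not stated, so reads in these overlaps cannot be assigned with certainty.

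Values are reads divided by the authors' DESeq size factors, called normalised reads below. The 39 libraries held 2358162 to 4078819 reads on listed genes. Tests were limma fits on log2(normalised reads + 1) over 8393, 8271 and 8357 genes with a table mean of at least 10, called at a Benjamini-Hochberg adjusted p under 0.05. Fold changes are on that scale, which understates the change of low genes. Groups whose libraries do not overlap are described as such, without the share of all genes for which this holds. Replicate 3 of the 3-day males stood apart, with correlations across genes of 0.848 and 0.845 with the other 3-day libraries, against 0.979 between those. Transcript levels matched the Atg8a allele (45.4, 43.0 and 60.4 normalised reads in Atg8a mutants, against 3569, 3445 and 2421 in wild type). They do not check the foxo genotype, since foxo had 717, 715 and 828 normalised reads in foxo mutants, against 596, 534 and 617 in wild type. The gene daw had 421, 374 and 522 normalised reads in daw-3'UTR mutants and 522, 514 and 420 in daw-3'UTR foxo mutants, against 296, 322 and 229 in wild type. All libraries with the allele lay above wild type, and the difference passed for daw-3'UTR foxo mutants (0.79, limma adjusted p = 0.00514) but not for daw-3'UTR mutants (0.64, limma adjusted p = 0.103). The product of mir-252 was not measured. The amylases and maltases are known as midgut enzymes, and markers of midgut and of fat body were detected in every library labelled muscle. In such bulk samples fewer cells of a type and less RNA per cell cannot be told apart.

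Per kilobase of exon, the amylases were the most abundant members in every wild-type group and Mal-A7 the least. In wild-type females of the mir-252 set Amy-p averaged 4949 ± 493 normalised reads per kilobase (SD, n = 3). Amy-d followed at 3266 ± 429 on the same per-kilobase scale, clear of Amy-p. Mal-A1 came next at 788 ± 229, followed by Mal-A6 at 448 ± 195 and tobi at 419.9 ± 222 normalised reads per kilobase, and the ranges of these 3 neighbours overlapped in turn. Mal-B2 (165 ± 33.1), Mal-B1 (115 ± 61.7) and Mal-A8 (51.0 ± 31.9) formed the lower end of the detected members, again with overlapping neighbours. Mal-A7 averaged 0.771 ± 0.668 normalised reads per kilobase there. In 45-day males the order differed in that Mal-A1, at 1558 ± 268 per kilobase, overlapped Amy-d at 1854 ± 123, and Mal-A7 reached 23.2 ± 9.82. Summed over the 9 genes, the members took 0.141% to 0.831% of a library's normalised reads.

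With the daw-3'UTR allele, alone or with the foxo allele, Amy-d differed more from wild type than any other member tested. Amy-d had 87.9, 77.5 and 104 normalised reads in daw-3'UTR mutants and 37.7, 38.9 and 32.5 in daw-3'UTR foxo mutants, against 2255, 2232 and 947 in wild type. Neither mutant came near the lowest wild-type library, and the group means were 20.2-fold and 49.8-fold lower in the mutants. Amy-p, its near-identical neighbour, had 2074, 2639.7 and 3614 normalised reads in daw-3'UTR mutants and 3644, 4427 and 4169 in daw-3'UTR foxo mutants, against 6751, 6139 and 3829.5 in wild type. The daw-3'UTR libraries lay below all wild-type libraries for Amy-p, whereas those of daw-3'UTR foxo mutants overlapped wild type (log2 difference -0.41, limma adjusted p = 0.185, or -0.66 and 0.0293 without wild-type replicate 3). For daw-3'UTR mutants the Amy-p difference was -1.0 ± 0.23 on the log2 scale (SE). Both amylases were past the threshold in this comparison, which is 2 of 8 members tested, beside 1.96% of all genes called lower (3.12% in either direction). The low Amy-d reads were known when the list was made, so this count is a description and not support for the list. For the same reason the adjusted p of the amylases in the main fit is left out. The Amy-p call ended without wild-type replicate 1 or 2 or daw-3'UTR replicate 1 or 2 (adjusted p = 0.105 to 0.135).

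**Figure D1:**
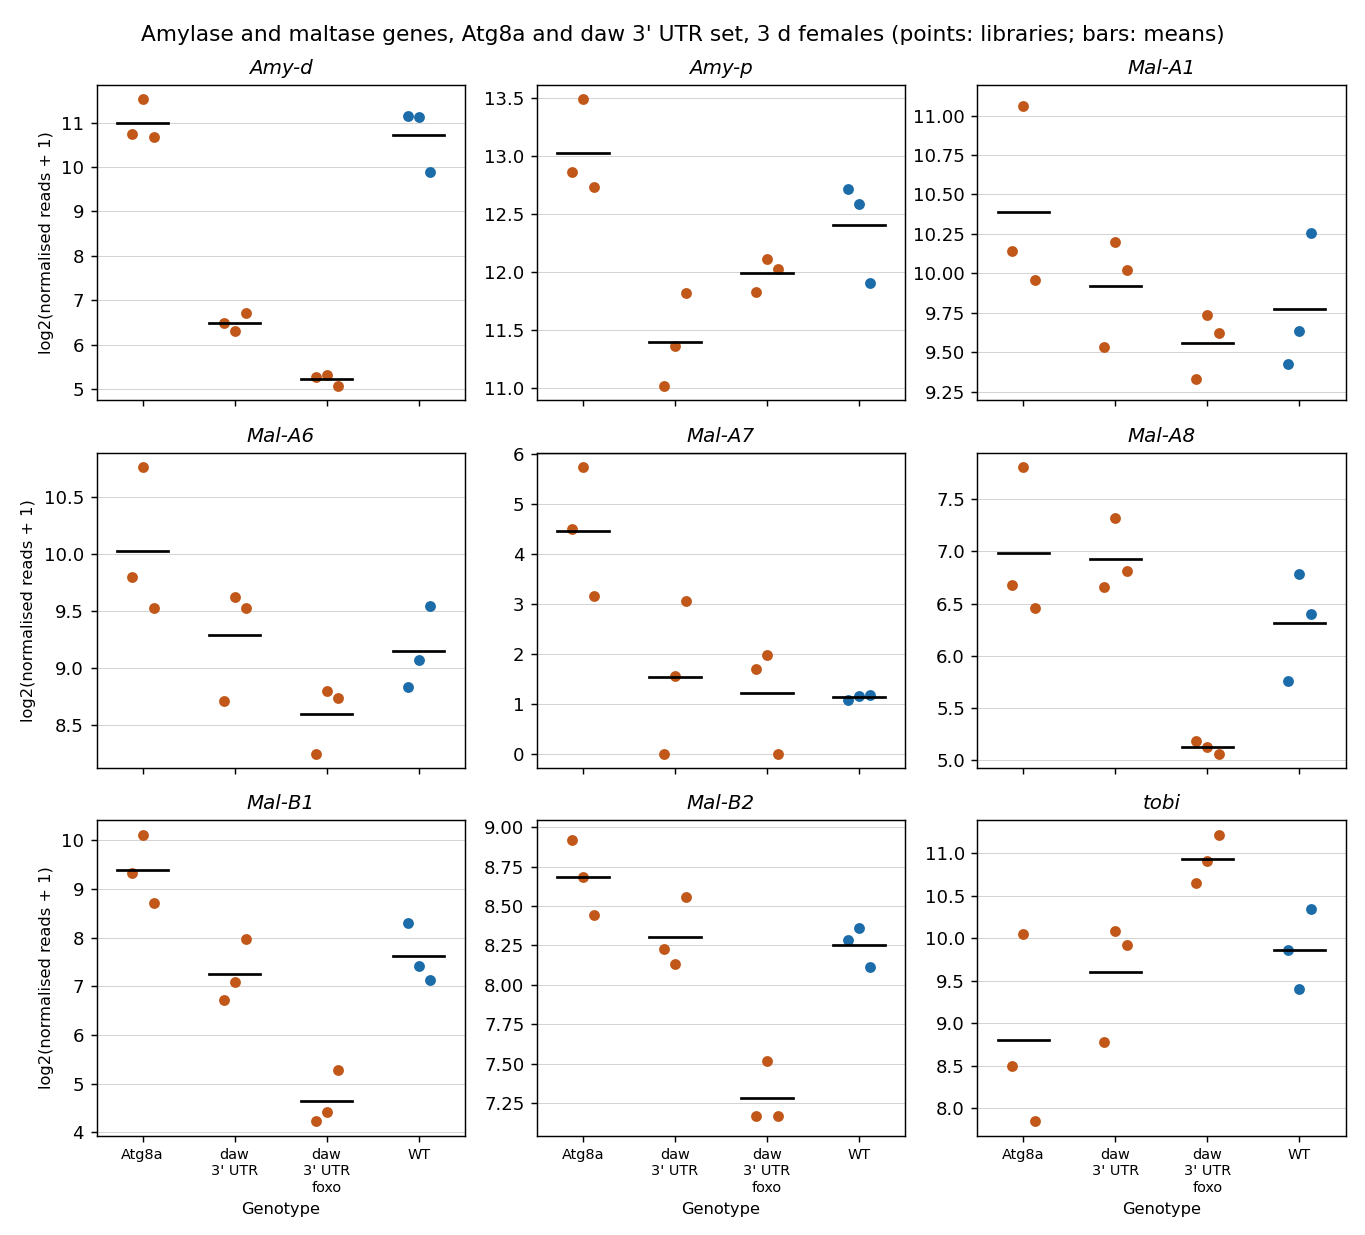
Log2(normalised reads + 1) of the members in 3-day-old females of the daw-3'UTR set, with 1 point per library and bars at the mean; mutants are orange and wild type blue. In normalised reads, Amy-d lies at 77.5 to 104 in daw-3'UTR mutants and 32.5 to 38.9 in daw-3'UTR foxo mutants, below wild type at 947 to 2255, while the other members of daw-3'UTR mutants, apart from Amy-p, overlap wild type.

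No maltase passed the threshold in daw-3'UTR mutants without the foxo allele. Mal-A1, the most abundant maltase among the members, had 739.8, 1172 and 1039 normalised reads in daw-3'UTR mutants, against 687, 792 and 1219 in wild type. Mal-B1 had 105, 135 and 249, against 313, 171 and 139.9 in wild type. The libraries of the groups overlapped for both genes. The log2 differences of Mal-A1, Mal-A6, Mal-A8, Mal-B1, Mal-B2 and tobi ran between -0.36 (Mal-B1) and 0.61 (Mal-A8). The median of the 8 tested members was -0.11, beside 0.01 over all genes.

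With the foxo allele added, Mal-B1, Mal-A8 and Mal-B2 were also lower. Mal-B1 had 17.7, 20.4 and 37.7 normalised reads in daw-3'UTR foxo mutants, against 105, 135 and 249 in daw-3'UTR mutants. This is a log2 difference of -2.62 ± 0.39 (SE, limma adjusted p = 0.000231), and every daw-3'UTR foxo library lay below every library of the other 3 genotypes in the set. Mal-A8 had 35.5, 34.1 and 32.5 in daw-3'UTR foxo mutants, against 100.1, 159 and 111 in daw-3'UTR mutants (-1.80 ± 0.31, limma adjusted p = 0.000624). Mal-B2 had 143, 182 and 143, against 299, 279 and 375 (-1.02 ± 0.15, limma adjusted p = 0.000158). The libraries did not overlap for either gene. Amy-d was lower again with the foxo allele, by -1.27 ± 0.28 on the log2 scale (limma adjusted p = 0.00353). Mal-A1 (-0.36, limma adjusted p = 0.334) and Mal-A6 (-0.69, limma adjusted p = 0.0927) did not pass.

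The gene tobi moved the other way. It had 1608, 1922 and 2384 normalised reads in daw-3'UTR foxo mutants, against 438, 1089 and 969.9 in daw-3'UTR mutants, where replicate 1 was low. The log2 difference was 1.33 ± 0.45 (SE, limma adjusted p = 0.0352) and the groups did not overlap. The call ended without daw-3'UTR replicate 1 (0.92, limma adjusted p = 0.167), without any of daw-3'UTR foxo replicates 1, 2 and 3 (0.0537 to 0.0926), and in DESeq2 on whole reads (adjusted p = 0.104). Amy-p was also higher in every daw-3'UTR foxo library than in the daw-3'UTR libraries, without passing the test (0.59 ± 0.23, limma adjusted p = 0.0698), though it passed without daw-3'UTR replicate 3 (0.80, adjusted p = 0.0259). Mal-A6 passed without daw-3'UTR replicate 1 (-0.98, limma adjusted p = 0.0302).

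Between daw-3'UTR foxo and daw-3'UTR mutants 4 members were called lower and 1 higher of 8 tested, beside 16.2% and 14.4% of all genes (30.6% in either direction). Between daw-3'UTR foxo mutants and wild type, Amy-d, Mal-A8, Mal-B1 and Mal-B2 were past the threshold, which is 4 of 8 and all lower, beside 19.1% of all genes called lower (35.8% in either direction). Mal-B1 was 8.21-fold lower by group means, with a log2 difference of -2.98 ± 0.39 (SE, limma adjusted p = 5.54e-05). The median over the tested members was -0.76 against wild type and -0.86 against daw-3'UTR mutants, beside 0.01 and 0.00 over all genes. Markers of several tissues moved in the same libraries. The summed normalised reads of midgut markers were 5909 to 6214 in daw-3'UTR foxo mutants, against 10225 to 12304 in daw-3'UTR mutants and 11144 to 12893 in wild type, with 4 higher and 4 lower of 18 tested against wild type. Peritrophin-15a, a gene of the gut lining, was 3.58 higher on the log2 scale, and the mucin gene Muc68D fell by 1.34. Hemocyte markers summed to 8030 to 9562 in daw-3'UTR foxo mutants, against 3312 to 3716 in daw-3'UTR mutants and 3139 to 3432 in wild type, with 9 of 10 tested higher than in wild type. Of 18 muscle markers 13 were higher and 3 lower than in wild type, and of 9 neuron and eye markers 0 were higher and 3 lower (median log2 difference -0.93). The part of these markers in the members' differences was not tested.

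Among genes of sugar sensing and activin signalling, none of those tested was called in daw-3'UTR mutants against wild type. In daw-3'UTR foxo mutants 3 were called higher and 7 lower than in wild type, of 17 tested. They include the insulin-like peptide gene Ilp6 (log2 difference -2.92), the activin ligand gene Actbeta (-0.85) and the type II receptor gene put (-0.54). Digestive proteases, which like the amylases act in the gut, had 5 called lower and 0 higher of 13 against wild type.

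In Atg8a mutants Mal-B1 was higher than in wild type, and no other tested member was called by limma over all libraries. It had 647, 1113 and 418 normalised reads in Atg8a mutants, against 313, 171 and 139.9 in wild type, with all mutant libraries above all wild-type ones. The log2 difference was 1.77 ± 0.39 (SE, limma adjusted p = 0.0116), and this was 1 of 8 members called higher, beside 5.16% of all genes (9.89% in either direction). Atg8a replicate 2 was the highest library for Mal-B1, and without it the difference was 1.41 with an adjusted p of 0.0548. Mal-A7, too low to be tested in this table, had 21.5, 52.5 and 7.88 normalised reads in Atg8a mutants, against 1.11, 1.21 and 1.25 in wild type. Amy-p, at 7471, 11513 and 6822 against 6751, 6139 and 3829.5 in wild type, and Mal-B2, at 483, 410.2 and 347 against 311, 327 and 276, also did not overlap wild type but did not pass the test (limma adjusted p = 0.106 and 0.0776). For tobi the means pointed down (359.7, 1062 and 229 in Atg8a mutants, against 928, 675 and 1298), with overlapping libraries and a limma adjusted p of 0.149. Without Atg8a replicate 2 tobi was called lower (-1.70, limma adjusted p = 0.0121), and without Atg8a replicate 3 Mal-A6 (1.13, 0.0421) and Mal-B2 (0.55, 0.0454) were called higher.

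In foxo mutants of the mir-252 set, 5 of 8 tested members were lower than in wild type: Mal-B1, Mal-A8, Mal-A6, tobi and Amy-d. This stands beside 6.28% of all genes called lower and 11.8% in either direction. Mal-B1 had 34.3, 24.2 and 18.9 normalised reads in foxo mutants, against 335, 121 and 171 in wild type (log2 difference -2.88 ± 0.44, limma adjusted p = 0.000204). That is 8.11-fold lower by group means, and the highest foxo library lay well below the lowest wild-type one. Mal-A6 had 530.0, 214 and 382 normalised reads in foxo mutants, against 1543, 782 and 756 in wild type (-1.46 ± 0.27, limma adjusted p = 0.00117). Mal-A8 had 42.0, 1.93 and 23.0, against 159, 67.9 and 50.9 in wild type (-2.52 ± 0.65, limma adjusted p = 0.0145). Neither gene's groups overlapped, and foxo replicate 2 was the lowest library for both.

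Expression of tobi followed the same libraries, with 441, 154 and 423 normalised reads in foxo mutants, against 1416, 543 and 691 in wild type (-1.40 ± 0.33, limma adjusted p = 0.00802). Amy-d had 2773, 3431 and 2627 normalised reads in foxo mutants, against 6041, 4853 and 4842 in wild type (-0.84 ± 0.12, limma adjusted p = 0.000118), and here foxo replicate 2 was the highest of its group. Amy-p was lower in each foxo library than in any wild-type library without passing the test (-0.31, limma adjusted p = 0.0974), and Mal-A1 (-0.55, limma adjusted p = 0.135, or -0.79 and 0.0469 without foxo replicate 1) and Mal-B2 (0.10, limma adjusted p = 0.696) overlapped. Wild-type library 1 was the highest wild-type library for each member in this table. Without it the tobi difference was -1.0 (limma adjusted p = 0.0583) and that of Mal-A8 -2.05 (0.0878), and 3 members were called. The Mal-A8 call also ended without foxo replicate 2 (-1.37, limma adjusted p = 0.0560) and in DESeq2 on whole reads (adjusted p = 0.0529).

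**Figure D2:**
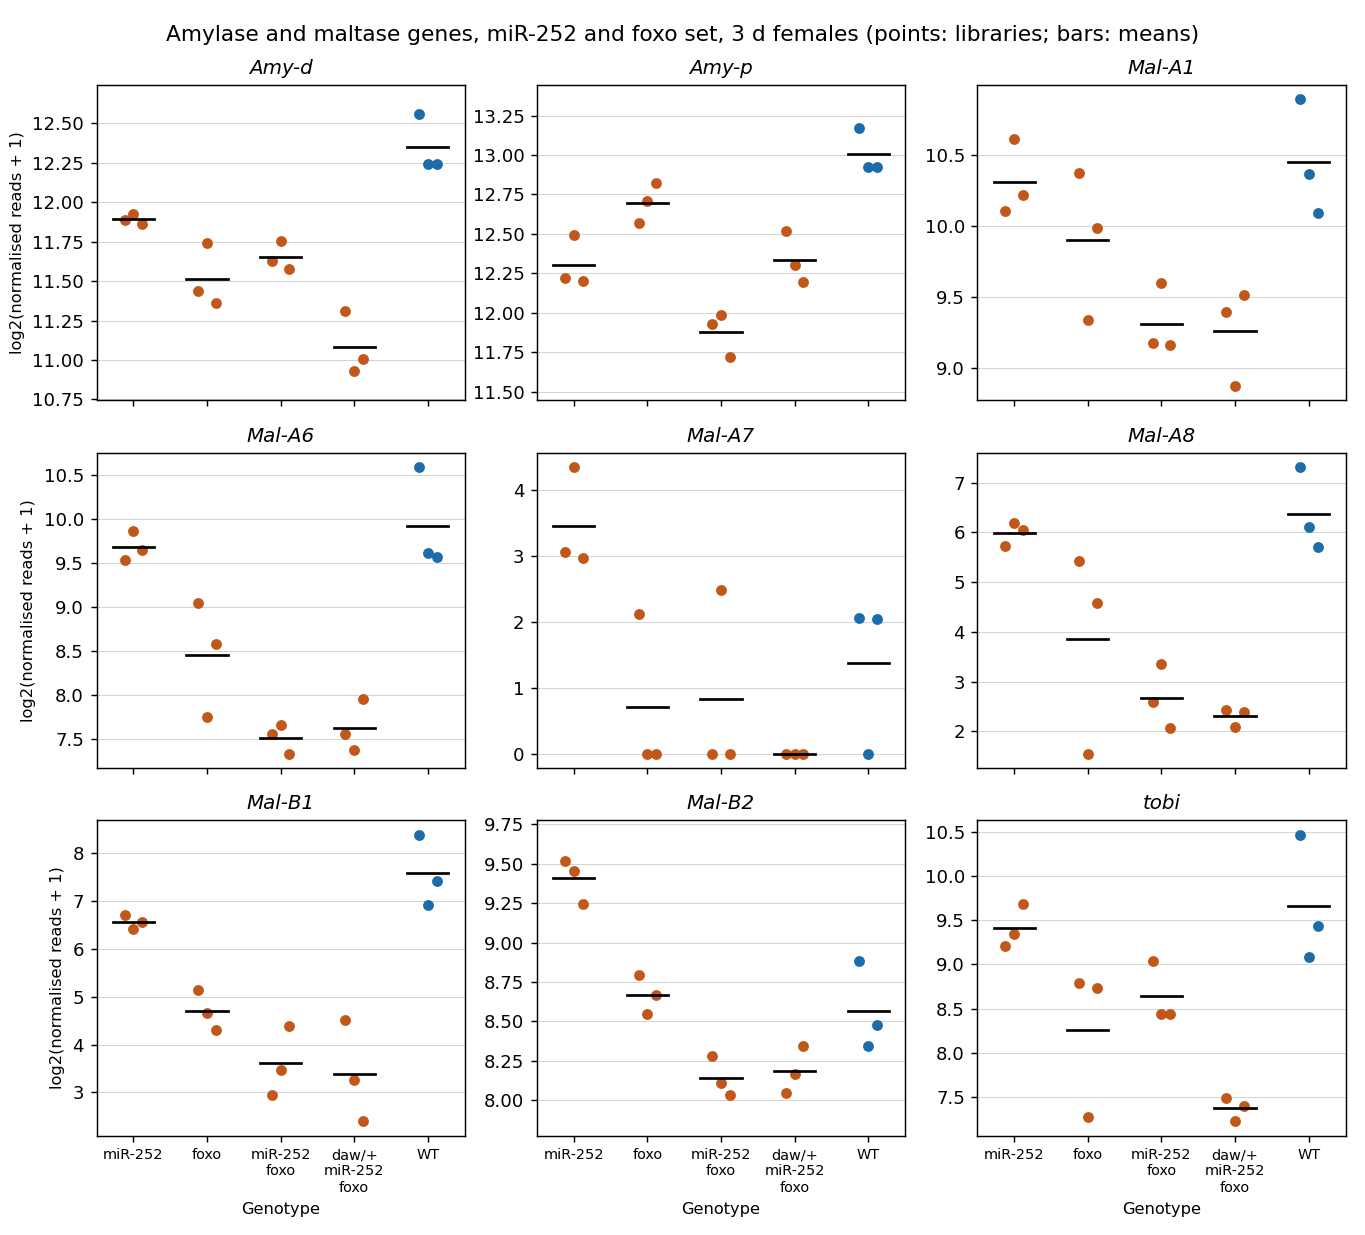
Log2(normalised reads + 1) of the members in 3-day-old females of the mir-252 set, with 1 point per library and bars at the mean; mutants are orange and wild type blue. In normalised reads, Mal-B1 lies at 18.9 to 34.3 in foxo mutants, 6.71 to 20.1 in mir-252 foxo mutants and 4.27 to 21.8 with the added daw allele, below wild type at 121 to 335.

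In mir-252 mutants both amylases were lower and Mal-B2 was higher. Amy-p had 4775, 5757 and 4711 normalised reads in mir-252 mutants, against 9204, 7774 and 7786 in wild type (log2 difference -0.70 ± 0.12, limma adjusted p = 0.000967). Amy-d had 3795, 3881 and 3727, against 6041, 4853 and 4842 in wild type (-0.46 ± 0.12, limma adjusted p = 0.0340). Mal-B2 had 733, 701 and 607 normalised reads in mir-252 mutants, against 470.4, 324 and 355 in wild type (0.84 ± 0.13, limma adjusted p = 0.000651). None of the 3 overlapped wild type. They make 2 of 8 members called lower and 1 higher, beside 2.51% and 1.88% of all genes (4.39% in either direction). The Amy-d call ended without wild-type library 1 or 2 or any mir-252 replicate (adjusted p = 0.0508 to 0.206). Mal-B1 was lower in all mir-252 libraries (104, 84.7 and 94.1, against 335, 121 and 171 in wild type) without passing the test (-1.01, limma adjusted p = 0.264), whereas edgeR on whole reads called it (-1.13, adjusted p = 0.0440). Mal-A7 had 7.30, 19.3 and 6.79 normalised reads in mir-252 mutants, against 3.17, 0 and 3.12 in wild type, and was not tested.

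All 8 tested members were lower in mir-252 foxo mutants than in wild type, beside 12.9% of all genes called lower (25.2% in either direction). Mal-B1 had 6.71, 10.1 and 20.1 normalised reads in mir-252 foxo mutants, which is 17-fold below wild type by group means (log2 difference -3.98, limma adjusted p = 2.40e-06). Mal-A8 had 5.04, 9.19 and 3.21 and was 15.9-fold below (-3.70, limma adjusted p = 0.000267). Mal-A6 had 187, 201 and 161 and was 5.61-fold below (-2.41, limma adjusted p = 2.40e-06). For these 3 maltases every mutant library lay under every wild-type one. The differences of the other 5 were -1.14 for Mal-A1, -1.13 for Amy-p, -1.02 for tobi, -0.70 for Amy-d and -0.43 for Mal-B2. The calls of Mal-B2 and tobi ended without wild-type library 1 (-0.27 and -0.62, limma adjusted p = 0.167 and 0.183) and without mir-252 foxo replicate 2 or 3 (adjusted p = 0.0743 to 0.0999).

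Set against each parent mutant, the members divided differently. Against mir-252 mutants, 6 of 8 were lower in mir-252 foxo mutants, beside 9.49% of all genes (18.9% in either direction). Mal-A8 differed by -3.31, Mal-B1 by -2.96, Mal-A6 by -2.17, Mal-B2 by -1.27, Mal-A1 by -1.0 and Amy-p by -0.43 on the log2 scale (limma adjusted p = 0.00130, 0.000111, 1.83e-05, 4.17e-06, 0.00495 and 0.0146). The Amy-p call ended without mir-252 replicate 2 or mir-252 foxo replicate 3 (adjusted p = 0.0631 and 0.0723). Against foxo mutants, 3 of 8 were lower, beside 4.27% of all genes (9.01% in either direction): Amy-p (-0.82, limma adjusted p = 0.000241), Mal-A6 (-0.94, limma adjusted p = 0.0323) and Mal-B2 (-0.53, limma adjusted p = 0.0193). The Mal-A6 call ended without foxo replicate 1 or 3 or any mir-252 foxo replicate (adjusted p = 0.0540 to 0.178), and that of Mal-B2 without foxo replicate 1 or 3 or mir-252 foxo replicate 2 or 3 (0.0580 to 0.0914). Without foxo replicate 2, Mal-A1 (-0.87) and Mal-A8 (-2.34) were also called (limma adjusted p = 0.0307 and 0.00398). Mal-B1 (-1.10, limma adjusted p = 0.139) did not pass against foxo mutants.

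For Mal-B2 the combination departed from the sum of the single mutants on the log2 scale in the limma test. It averaged 680.0 ± 65.6 normalised reads in mir-252 mutants, 407 ± 35.1 in foxo mutants and 282 ± 25.5 in mir-252 foxo mutants, against 383 ± 76.9 in wild type (SD, n = 3 each). The interaction was -1.37 ± 0.19 (SE, limma adjusted p = 0.000237), which is 1 of 8 members, beside 0.909% of all genes with a negative interaction (2.09% in either direction). The interaction of Amy-d was 0.59 ± 0.17 and did not pass (limma adjusted p = 0.0828), whereas it was called in DESeq2 on whole reads (0.60, adjusted p = 0.0388) and without foxo replicate 2 (0.71, limma adjusted p = 0.0431).

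With 1 dawc458 allele on top of the mir-252 foxo mutant genotype, Amy-d and tobi were lower and Amy-p was higher. Amy-d had 2536, 1947 and 2055 normalised reads with dawc458/+, against 3159.5, 3449 and 3055 without it (log2 difference -0.57 ± 0.12, limma adjusted p = 0.0120). Amy-p had 5854, 5054 and 4680.4, against 3899.7, 4046 and 3374 (0.46 ± 0.12, limma adjusted p = 0.0270). The gene tobi had 179, 149 and 168, against 526, 346 and 346 (-1.27 ± 0.33, limma adjusted p = 0.0291). The libraries did not overlap for any of the 3. They make 2 of 8 members lower and 1 higher, beside 2.30% and 2.79% of all genes (5.09% in either direction). Scaled to a common upper quartile, 320 genes were called higher and 153 lower here, against 233 and 192. The tobi call ended without any of the 6 libraries (adjusted p = 0.0549 to 0.0979), that of Amy-p without mir-252 foxo replicate 3 or dawc458/+ replicate 1 (0.138 and 0.112), and that of Amy-d without mir-252 foxo replicate 2 (0.0513). A fit of these 2 groups alone called tobi but not Amy-d or Amy-p (adjusted p = 0.0555 and 0.106). The 3 dawc458/+ libraries differed from the mir-252 foxo libraries by -0.03 (log2) in daw itself (limma adjusted p = 0.931). Against wild type 7 members were lower with dawc458/+, beside 8.17% of all genes (15.9% in either direction), and Mal-B2 passed too without wild-type library 2 or dawc458/+ replicate 3 (adjusted p = 0.0298 and 0.0393). Mal-A8 (4.36, 3.24 and 4.27 normalised reads) was 23.4-fold, Mal-B1 18.1-fold and tobi 5.35-fold lower by group means. Mal-A7 had 0 reads in the 10125380 reads of the 3 dawc458/+ libraries, which allows a level of up to 1.08 normalised reads (3 reads over the group, counting error only).

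Other digestive genes moved in the same muscle libraries. Of 17 tested digestive proteases, 9 were higher and 0 lower in foxo mutants than in wild type, opposite to the members. In mir-252 foxo mutants against foxo mutants 0 were higher and 12 lower. Their summed normalised reads were 41407 to 46085 in mir-252 mutants, 76789 to 90445 in foxo mutants and 44911 to 58720 in mir-252 foxo mutants, against 50099.9 to 62344 in wild type. Midgut markers summed to 11195 to 11748 normalised reads in foxo mutants and 10312 to 11415 in mir-252 foxo mutants, against 14095 to 16399 in wild type. Of 17 tested, 3 were higher and 2 lower in foxo mutants, with Peritrophin-15a at a log2 difference of 3.57 and Muc68D at -0.51. Ovary and testis markers summed to 267879 to 303586 in foxo mutants and 209078 to 233248 in mir-252 foxo mutants. Wild type had 133990 to 162433, and 3 of 4 tested were higher in each mutant. This list includes the yolk protein genes Yp1, Yp2 and Yp3, and which tissue its reads came from was not tested. Hemocyte markers summed to 5003 to 6608 in foxo mutants and 7114 to 8928 in mir-252 foxo mutants, against 3937 to 4549 in wild type, with 4 and 9 of 10 tested higher. The part of these markers in the members' differences was not tested. Among 18 genes of sugar sensing and activin signalling, 1 was higher and 2 lower in foxo mutants than in wild type, the lower ones being put (-0.60) and Ilp6 (-0.88).

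The foxo allele was thus compared with its own background in 4 settings of female muscle. For 1 of these, axenic flies, the authors' deposited table gives the values. In that table Mal-A8 (log2 difference -1.26, SE 0.27, adjusted p = 0.000256), Mal-A6 (-0.76, SE 0.20, adjusted p = 0.0037) and Mal-B1 (-0.88, SE 0.27, adjusted p = 0.0212) were lower in axenic foxo mutants than in axenic wild type. In the authors' deposited table tobi was higher (0.72, SE 0.18, adjusted p = 0.00246). These are 3 of 8 members lower and 1 higher, beside 3.24% and 3.01% of the genes in the authors' deposited table (6.25% in either direction). Amy-d (-0.43), Amy-p (-0.38), Mal-A1 (-0.25) and Mal-B2 (-0.37) did not pass in the authors' deposited table. Mal-A8 and Mal-B1 were thus called lower in each of the 4 settings. The share of all genes called lower in all 4 was not computed. The Mal-A8 call in foxo mutants against wild type ended in 3 of 12 alternatives (highest adjusted p = 0.0878 by limma). For tobi the foxo difference was 1.33 on the daw-3'UTR background and, in the authors' deposited table, 0.72 in axenic flies, but -1.40 in conventionally reared foxo mutants and -0.77 on the mir-252 background (limma adjusted p = 0.111 for the last). Within the mir-252 set the foxo differences of tobi with and without the mir-252 allele differed by 0.63 ± 0.46 (SE), which did not pass (limma adjusted p = 0.647). Differences from the daw-3'UTR and axenic settings were not tested, since those tables were normalised separately. A fit of only the groups compared called the tobi difference on the mir-252 background (adjusted p = 0.0145). Digestive proteases had 7 higher and 0 lower of 16 in the authors' deposited table of axenic flies.

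**Figure D3:**
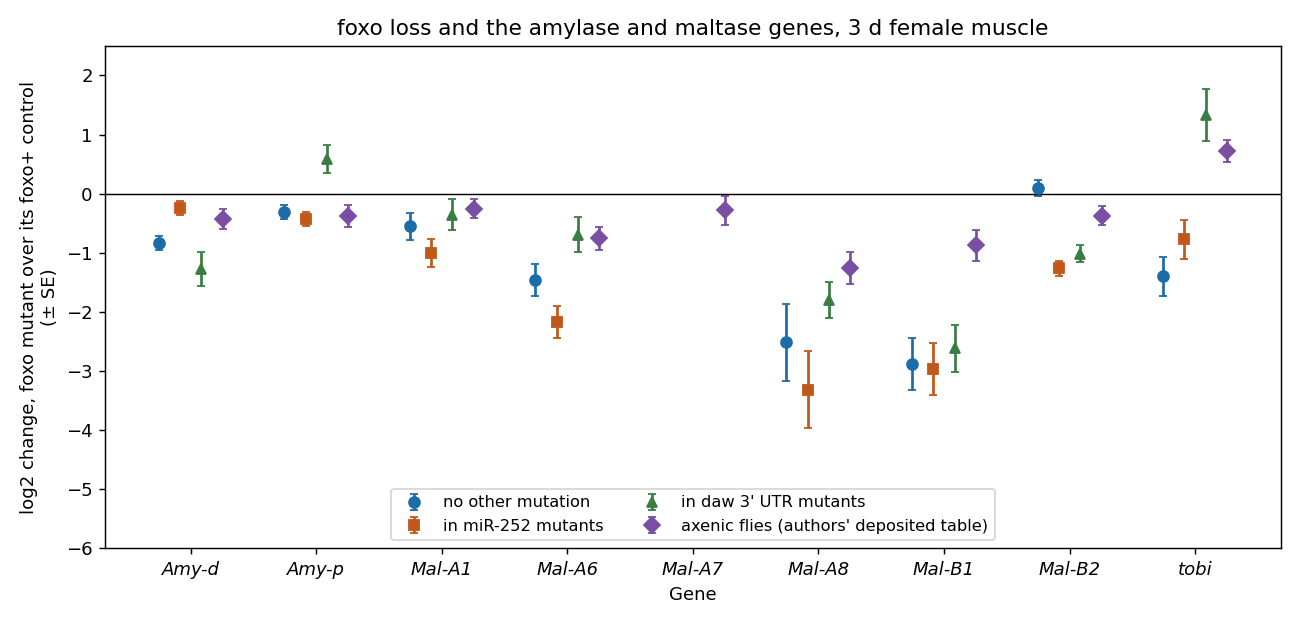
Log2 difference of each member with the foxo allele against its own background in 4 settings, with bars of 1 SE; the axenic values are those of the authors' deposited table. Mal-A8 and Mal-B1 lie below 0 in each setting, at -1.26 and -0.88 in axenic flies, while tobi lies at 1.33 on the daw-3'UTR background and at -1.40 in foxo mutants against wild type.

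The share of Amy-d in the reads of both amylases was lowest in the 2 daw-3'UTR genotypes. Amy-d made up 3.24% ± 0.719 of the reads of both amylases in daw-3'UTR mutants, 0.889% ± 0.127 in daw-3'UTR foxo mutants and 19.5% ± 0.845 in Atg8a mutants, against 23.8% ± 3.57 in wild type (SD, n = 3 each). In the mir-252 set it made up 42.9% ± 2.28 in mir-252 mutants, 30.6% ± 3.72 in foxo mutants, 46.1% ± 1.38 in mir-252 foxo mutants and 29.5% ± 1.48 with dawc458/+, against 38.8% ± 0.714 in wild type. The ranges of the foxo and dawc458/+ libraries lay below wild type, and those of the mir-252 and mir-252 foxo libraries above it. In males the mean share was between 29.9% and 30.5% at the 4 ages, with replicate 3 of the 3-day males at 22.8%. The wild-type means of the 2 female sets, 23.8% and 38.8%, come from separate tables. How reads shared by the copies were counted bears on all of these shares.

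**Figure D4:**
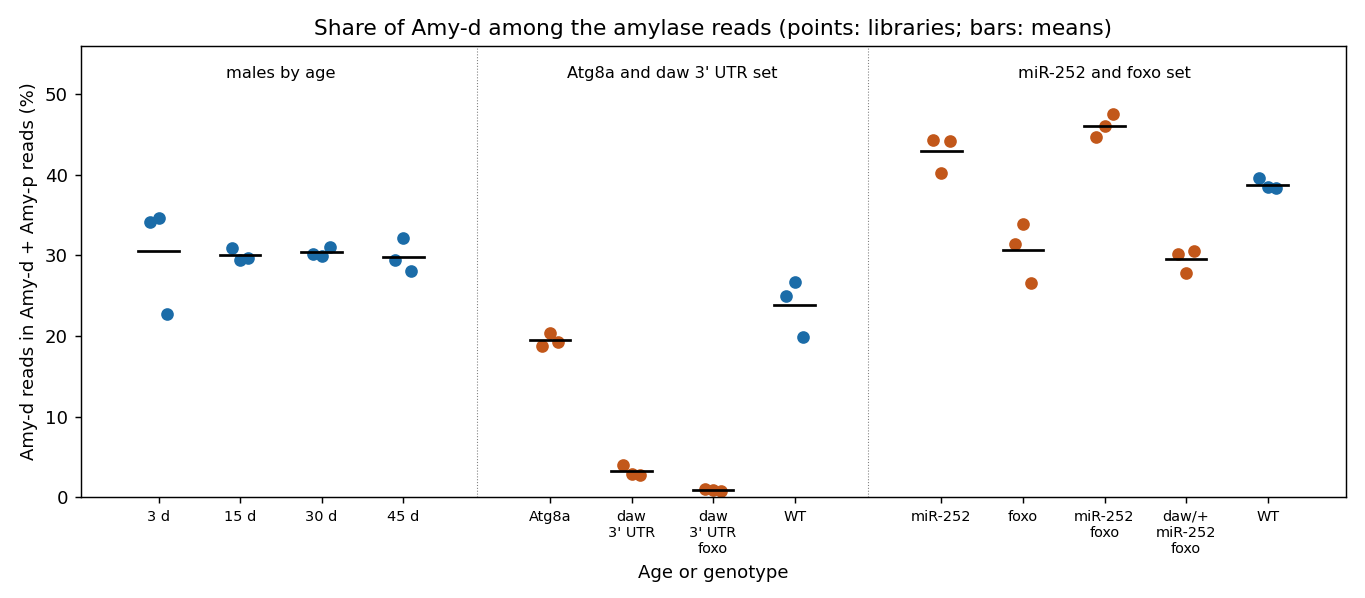
Amy-d as a percentage of Amy-d plus Amy-p normalised reads, with 1 point per library and bars at the mean; mutants are orange, and wild type and the male ages blue. The daw-3'UTR libraries lie at 2.79% to 4.07% and the daw-3'UTR foxo libraries at 0.773% to 1.02%, against 19.8% to 26.7% in their wild type.

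In wild-type males Mal-A1, Mal-B1 and Mal-B2 were higher at 30 and 45 days than at 3 days, and Mal-A7 was higher at 45 days, while neither amylase passed the test at any age. Mal-B1 was highest at 30 days. It had 47.6, 90.3 and 179.8 normalised reads at 3 days, 207, 221 and 271 at 15 days, 505, 624 and 906 at 30 days and 407, 387 and 402 at 45 days. Each later age lay above all 3-day libraries. The log2 differences from 3 days were 1.32 at 15 days (limma adjusted p = 0.0555), 2.83 at 30 days (0.000381) and 2.10 at 45 days (0.00231). Mal-B2 had 359, 336 and 399 normalised reads at 3 days, 368, 504 and 471 at 15 days, 511, 545 and 517 at 30 days and 659.9, 592 and 613 at 45 days. Its differences were 0.53 at 30 days and 0.77 at 45 days (limma adjusted p = 0.0366 and 0.00364), with no overlap with 3 days at either age.

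**Figure D5:**
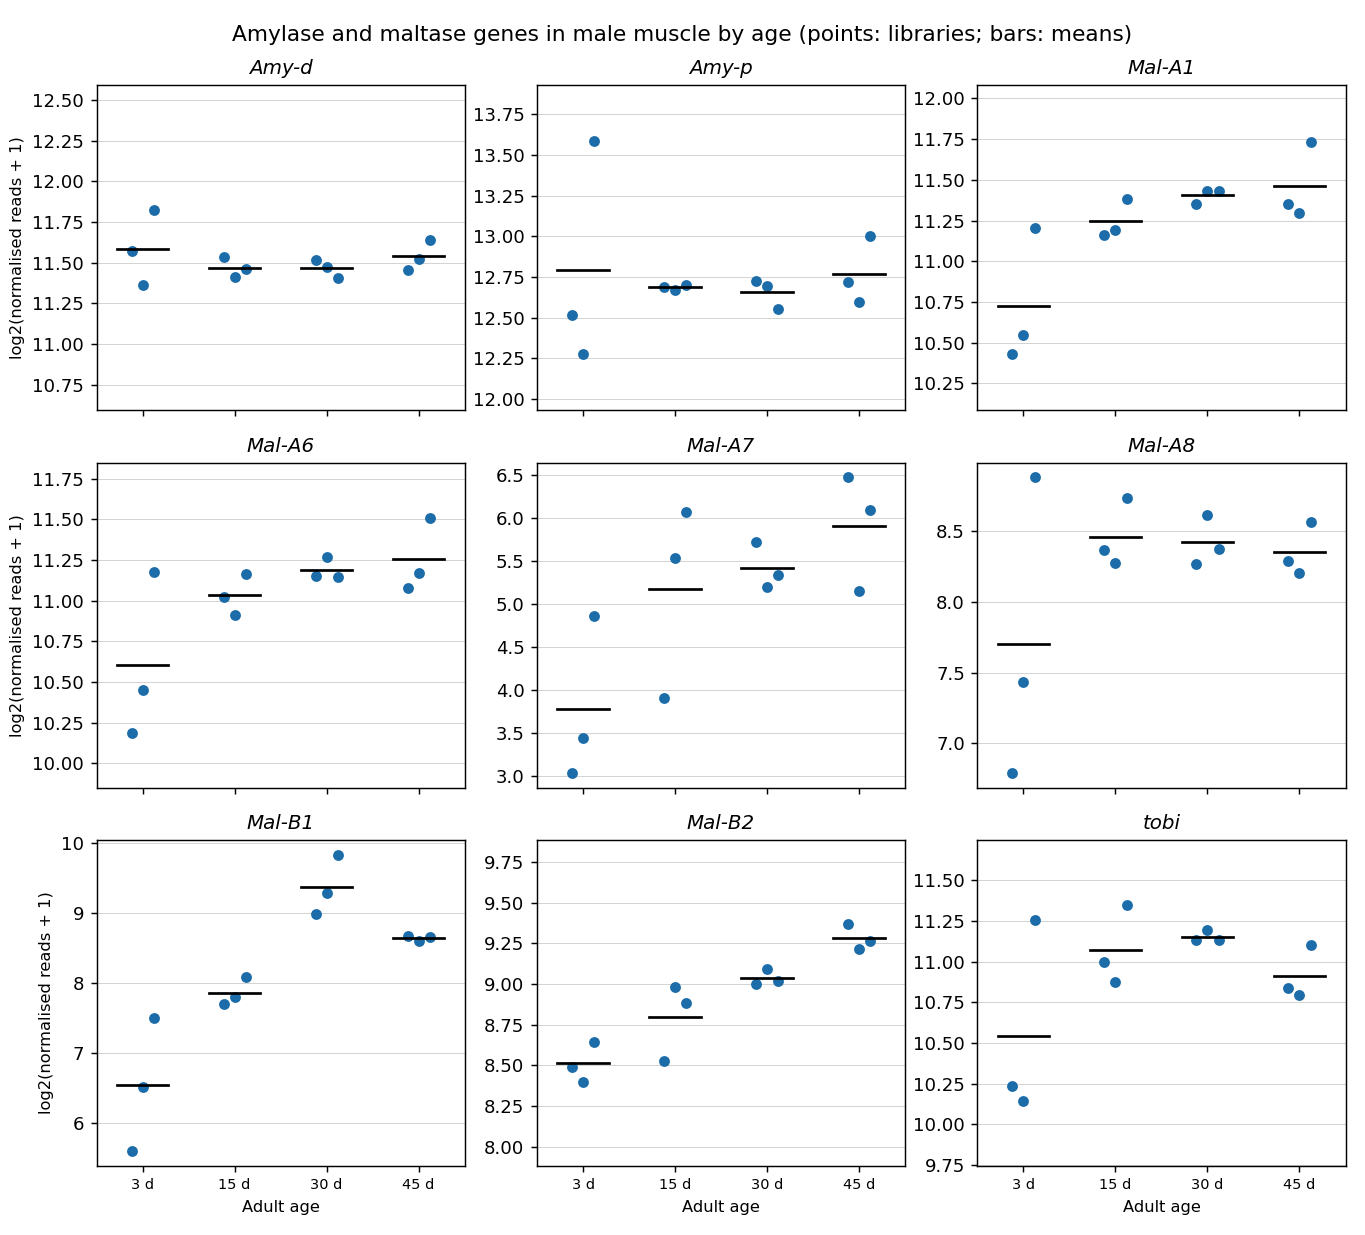
Log2(normalised reads + 1) of the members in wild-type male muscle at 3, 15, 30 and 45 days, with 1 point per library and bars at the mean. In normalised reads, Mal-B1 lies at 47.6 to 179.8 at 3 days and 505 to 906 at 30 days, whereas Amy-d lies between 2629 and 3621 at every age.

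Mal-A1 had 1379.9, 1495 and 2357 normalised reads at 3 days, 2608, 2761 and 2765 at 30 days and 2614, 2513 and 3408 at 45 days. Its log2 differences of 0.68 at 30 days and 0.73 at 45 days passed the test (limma adjusted p = 0.0461 and 0.0254). Mal-A7 had 7.21, 9.88 and 28 at 3 days and 87.5, 34.6 and 67.1 at 45 days (2.12, limma adjusted p = 0.0240). Replicate 3 of the 3-day males was the highest 3-day library for all 9 members, and it alone came near the older groups for Mal-A1. Mal-A6, Mal-A8 and tobi had positive differences at each later age that did not pass (0.37 to 0.76). Amy-d differed by -0.12, -0.12 and -0.05 at 15, 30 and 45 days (limma adjusted p = 0.665, 0.624 and 0.854) and Amy-p by -0.10, -0.14 and -0.02. For Amy-p the 3-day libraries were spread over 5869, 4963 and 12274 normalised reads.

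Of 9 members, 0 were called at 15 days by limma, where 3 had an unadjusted p under 0.05, edgeR on whole reads called 0 and DESeq2 called 1. This stands beside 7.97% of all genes called at 15 days. At 30 days 3 were called, all higher, beside 5.40% of all genes higher (13.5% in either direction), and at 45 days 4, all higher, beside 8.41% (18.9%). The ages share their 3-day libraries. When 3-day replicate 3 was left out, 7 members were called at 15 days, 7 at 30 days and 8 at 45 days, beside 30.8%, 42.1% and 48.7% of all genes. In that fit Mal-B1 differed by 1.80, 3.31 and 2.58, and Amy-p by 0.37 at 45 days (limma adjusted p = 0.00949). At 30 days only Mal-B1 kept its call when any of 3-day replicates 1 and 2 or 30-day replicates 1, 2 and 3 was left out (adjusted p = 0.102 to 0.136 for Mal-A1 and 0.0630 to 0.130 for Mal-B2). Both also lost it with a common upper quartile and with only the groups compared (0.0679 to 0.232), and Mal-A1 in edgeR and without a filter (0.0602 and 0.0547). At 45 days Mal-A1 and Mal-A7 lost theirs without 3-day replicate 1 or 2 or 45-day replicate 1 or 3 (adjusted p = 0.0574 to 0.112), and, like Mal-B2, with only the groups compared (0.0674 to 0.195). Mal-A1 also lost it with a common upper quartile (0.0551).

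Markers of other tissues moved with age in the same libraries. Muscle markers summed to 142041 to 265795 normalised reads at 3 days and to 40955 to 42830 at 45 days, with 14 of 17 tested called lower at 45 days. Midgut markers summed to 6652 to 10801 at 3 days and 11756 to 13457 at 45 days, with 4 of 17 called higher. Fat body markers summed to 17798 to 30694 at 3 days, 43194 to 44025 at 30 days and 38913 to 44602 at 45 days, with 6 of 9 called higher at 30 days and 5 of 9 at 45 days. Digestive proteases went the other way, with 7 of 14 lower and 1 higher at 45 days. The part of these markers in the members' differences was not tested. Not all maltases were higher with age: Mal-A5, which is not among the 9, was lower by -1.27, -1.34 and -1.69 at 15, 30 and 45 days (limma adjusted p = 0.000161, 6.50e-05 and 8.05e-06), whereas Mal-A4 was higher by 3.34 at 45 days (0.000239). Of 16 genes of sugar sensing and activin signalling, 1 was called at each age, Ilp6, at 0.72, 1.15 and 1.30.

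The Ago1 immunoprecipitates of whole flies ask which transcripts are bound by the microRNA effector Ago1. In the authors' deposited table for 3 days, Mal-B2 (log2 difference 0.72, SE 0.23, adjusted p = 0.0088) and tobi (0.82, SE 0.27, adjusted p = 0.0131) were higher in Ago1 immunoprecipitates than in input. These are 2 of 9 members called higher, beside 17.8% of all genes in the authors' deposited table (26.0% in either direction). Amy-d, at 0.61 (SE 0.27), had an adjusted p of 0.0753 in the authors' deposited table. The others ran from -0.27 (Mal-A8) to 1.19 (Mal-B1, at a mean of 5.50 normalised reads). At 30 days 0 of 9 members were called in the authors' deposited table and 0 had an unadjusted p under 0.05, beside 16.5% of all genes called. Mal-B2 stood at -0.04 and tobi at 0.07 in that table. Whether the ages differ was not tested, and each group had 2 libraries. Of the genes of sugar sensing and activin signalling, 11 of 15 were higher in the authors' deposited table at 3 days and 8 of 16 at 30 days.

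Profiles were compared by the root mean square difference of centred log2 values across the libraries of a table. Outside the list, only named genes with a mean of at least 50 were searched, so genes with a CG or CR number may lie closer. Over the 12 male libraries the member nearest to Mal-A1 was Mal-A6 (0.0783). The nearest genes searched outside the list were Cyp6g1 (0.0942), Cyt-b5-r (0.127) and NaPi-T (0.128). Over the 12 libraries of the daw-3'UTR set Mal-A6 was again the member nearest to Mal-A1 (0.235). The nearest genes searched outside the list were GstO2 (0.298), Dgkepsilon (0.316) and CAH2 (0.320). Over the 15 libraries of the mir-252 set this order did not hold. There sPLA2 (0.340), VGlut (0.342) and nAChRalpha4 (0.344) were closer to Mal-A1 than any member. The nearest members were Amy-d (0.414) and Mal-B2 (0.423). For Amy-d in the daw-3'UTR set the nearest gene searched outside the list, Tina-1, was at 1.53 and Ilp6 at 1.81. The spread of Amy-d itself was 2.57, so none of the genes searched outside the list came close. For tobi NaPi-T was nearest in the daw-3'UTR set (0.441) and Obp99c in the mir-252 set (0.526).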

How the data were processed

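Muscle polyA RNA was sequenced, and values per gene were taken from 3 tables of the whole series. Per the submitters' processing notes, STAR, HTSeq, DESeq and the dm6 build were used (versions not given in the sources used here). The deposited signal is a gene's read count divided by the size factor of its library, set by the authors within each table, so tests were kept within a table. Whole read counts could be recovered for 100% of the deposited values (tolerance 0.01). The axenic and Ago1 tables hold the authors' own log2 fold changes with their standard errors and p-values, and whether these fold changes were shrunk is not stated. Among the rows of the mir-252 set, 8241 names were matched by symbol, 1631 through another table and 358 by synonym, and 28 were not matched. The wild-type columns there carry a group but no link to single samples, and are called libraries 1, 2 and 3.

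Here limma 3.58.1 (R 4.3.3, with an intensity trend) was fitted to log2(value + 1) over all groups of a table, for genes with a table mean of at least 10, in 15 comparisons including the interaction of the mir-252 and foxo alleles. All 9 members were tested in the male table and 8 in the others, where Mal-A7 was below the minimum. P-values were adjusted by Benjamini-Hochberg over all genes tested. Alternatives were edgeR 4.0.16 or DESeq2 1.42.0 on whole reads, scaling to a common upper quartile, no filter, a pseudocount of 8, leaving out each library in turn, fits of only the groups compared, and blocking on the replicate number. The fit was also run on simulated reads with the same dispersion for every gene, unlike the data, and no result of that run is used here. Libraries held 2358162 to 4078819 reads, and limits for a count of 0 cover counting error only. Named beside the members were at most 3 called genes per list and comparison with the smallest adjusted p, the genes of the mutated loci, and the 3 nearest profiles of Amy-d, Mal-A1 and tobi with a mean of at least 50. Genes listed only by a CG or CR number or an identifier, and those labelled lncRNA or asRNA, were left out of the search for near profiles. Mal-A4 and Mal-A5 are named as family genes. The members and the 14 gene lists were chosen with earlier results of these data known. Figures were drawn with matplotlib 3.10.9.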

Additional observations from a re-analysis of the deposited data

Results flagged for a closer look

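The effect of the foxo allele on Mal-B2 differed between flies with and without the mir-252 allele, with an interaction of -1.37 on the log2 scale that passed the test across all genes. For Amy-p every library with the foxo allele lay above its background in daw-3'UTR mutants (log2 difference 0.59), but below it in foxo mutants against wild type (-0.31) and in mir-252 foxo mutants against mir-252 mutants (-0.43). For tobi the same held, with 1.33 in daw-3'UTR mutants, -1.40 against wild type and -0.77 against mir-252 mutants. The Amy-p differences of 0.59 and -0.31 and the tobi difference of -0.77 did not pass the limma test over all libraries. Both genes were flagged because their libraries lay on opposite sides in different settings, without the share of all genes for which this holds. Between the settings without and with the mir-252 allele, which share a table, the interaction was -0.12 for Amy-p and 0.63 for tobi, and neither passed (limma adjusted p = 0.848 and 0.647). The difference of the daw-3'UTR setting from the others was not tested, since its values come from a separately normalised table.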

How the results depend on the processing

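Over the 15 comparisons 55 member results were called, of which 36 kept their call under every alternative run, 19 lost it under at least 1, and 0 changed sign. Among uncalled results 35 of 910 values under an alternative changed sign and 38 came to pass. The number of members called at 15 days was 1 with DESeq2 and 1 with the replicate block, against 0, and 0 to 7 when 1 library was left out. At 30 days it was 1 with a common upper quartile and 1 with only the groups compared, against 3, and 1 to 7 with 1 library left out. At 45 days it was 1 with only the groups compared, against 4, and 2 to 8 with 1 library left out. In Atg8a mutants 2 were called without a filter and 2 with the replicate block, against 1, and 1 to 3 with 1 library left out. With dawc458/+ against mir-252 foxo mutants 1 was called with only the groups compared, against 3, and 1 to 2 with 1 library left out. For the interaction DESeq2 called 2 (Mal-B2 and Amy-d), against 1, and 1 to 2 were called with 1 library left out. The other ranges with 1 library left out were 1 to 2 for daw-3'UTR mutants, 3 to 6 for foxo mutants against wild type, and 1 to 5 for mir-252 foxo mutants against foxo mutants.

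Uncalled log2 differences that changed sign when 1 library was left out ranged as follows. For age, Amy-d lay between -0.23 and 0.00354 at 15 days and -0.16 and 0.0733 at 45 days, and Amy-p between -0.36 and 0.29, -0.39 and 0.26, and -0.28 and 0.37 at 15, 30 and 45 days. Amy-d lay between -0.15 and 0.48 in Atg8a mutants. In daw-3'UTR mutants the ranges were -0.0253 to 0.39 for Mal-A1, -0.0310 to 0.43 for Mal-A6, -0.0724 to 0.14 for Mal-B2 and -0.52 to 0.14 for tobi, and Mal-A1 ranged over -0.38 to 0.0307 in daw-3'UTR foxo mutants against wild type. In mir-252 mutants they were -0.32 to 0.0811 for Mal-A1, -0.42 to 0.0971 for Mal-A6, -0.72 to 0.0857 for Mal-A8 and -0.54 to 0.15 for tobi. Mal-B2 ranged over -0.00962 to 0.26 in foxo mutants, and tobi over -0.12 to 0.64 in mir-252 foxo mutants against foxo mutants. With dawc458/+ against mir-252 foxo mutants the ranges were -0.18 to 0.14 for Mal-A1, -0.77 to 0.28 for Mal-B1, -0.0346 to 0.12 for Mal-B2 and -0.050 to 0.24 for Mal-A6. The interaction of Mal-B1 was 0.20 with a pseudocount of 8, 0.10 in edgeR and 0.0903 in DESeq2, against -0.08, and -0.49 to 0.25 with 1 library left out. The cause of these changes was not tested.

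Over all genes, edgeR on whole reads called 157 (interaction) to 2909 (daw-3'UTR foxo mutants against wild type) genes. With only the groups compared, 160, 338 and 511 genes were called at 15, 30 and 45 days, against 669, 1132 and 1586, and 537 in Atg8a mutants, against 818, and 113 with dawc458/+ against mir-252 foxo mutants, against 425. Same-numbered libraries had deviations correlated at -0.13 to 0.28, with 0, 5 and 5 of 18 pairs over 0.1 in the male, daw-3'UTR and mir-252 tables, so the numbers were not taken as pairs. The replicate block called 6 members between daw-3'UTR foxo and daw-3'UTR mutants, against 5, with Mal-A6 added (adjusted p = 0.0369), and ended the 30-day call of Mal-B2 (0.0674). It also called Mal-B1 at 15 days (0.0264), Mal-A6 in Atg8a mutants (0.0307) and tobi in mir-252 foxo mutants against mir-252 mutants (-0.77, 0.0377). Wild-type libraries of the mir-252 set carry no numbers, so no block was fitted to their comparisons. In the female tables the table mean of Mal-A7 stayed under the minimum. Its group mean was 27.3 normalised reads in Atg8a mutants, 11.1 in mir-252 mutants and 0 to 3.07 in the other female groups. Libraries held 2358162 to 4023468 reads in the daw-3'UTR table and 3294056 to 4078819 in the mir-252 table. Those of the male table, where Mal-A7 was tested, held 2838395 to 3487569. The part of depth in this was not tested.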
